A study of Mus musculus with 8 samples.

Results

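The miRNAs described here are the guide strands, the arms that are usually loaded onto Argonaute, of the miR-17, miR-18 and miR-19 seed families. They were the 10 probes of a mouse miRNA array named mmu-miR-17, mmu-miR-20a, mmu-miR-20b, mmu-miR-93, mmu-miR-106a and mmu-miR-106b (miR-17 family), mmu-miR-18a and mmu-miR-18b (miR-18 family), and mmu-miR-19a and mmu-miR-19b (miR-19 family), of 1135 miRNA probes in all. The prefix, which stands for mouse, is left out below. Liver RNA was compared between 4 samples from mice fed a diet deficient in methionine and choline (MCD) and 4 from mice fed a normal diet (control). The labels give 23 weeks of diet for every mouse. The methods describe male C57BL/6N mice and a shorter feeding period, which adds up to the number in the labels only when the age at its start is included. No other treatment or allele is given for either group. The MCD diet is a dietary model of steatohepatitis. Whole liver tissue was used, so a change in the share of a cell type and a change in RNA per cell cannot be told apart. The labels do not say whether the numbered samples are separate mice, so each p-value refers to the spread among them, which may be technical.

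In the miR-17-92 and miR-106a-363 clusters the 3 families are transcribed together, as parts of long primary transcripts that are cut into hairpins. Of these families, the miR-106b-25 cluster holds the miR-17 family only. The miR-17-92 cluster is a direct target of the growth regulator MYC and is often overexpressed in tumors, liver cancer among them. Its paralogs are the miR-106a-363 cluster on the X chromosome and the miR-106b-25 cluster, which is known to lie in an intron of the replication gene Mcm7. A guide recognizes its target mRNAs mainly through its seed. Known targets include the cell cycle inhibitor CDKN1A and the pro-apoptotic gene BIM for the miR-17 family, and the matrix regulator CTGF for the miR-18 family.

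All 10 guides were found in the RefSeq annotation of build GRCm38.p6, at 11 loci, since miR-19b is encoded in 2 clusters. The sequences are shown 5′ to 3′ because the seed, bases 2 to 8, in capitals, sets the families and the remaining letters show how alike the probes' targets are. They are the RefSeq mature RNAs and not the probes on the array.
miR-17: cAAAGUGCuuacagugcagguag
miR-20a: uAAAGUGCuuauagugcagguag
miR-20b: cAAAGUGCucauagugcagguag
miR-93: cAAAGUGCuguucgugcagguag
miR-106a: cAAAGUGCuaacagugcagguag
miR-106b: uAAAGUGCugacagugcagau
miR-18a: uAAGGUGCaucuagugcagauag
miR-18b: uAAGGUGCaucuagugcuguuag
miR-19a: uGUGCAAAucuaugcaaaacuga
miR-19b: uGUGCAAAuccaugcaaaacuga
Aligned from the 5′ end without gaps, miR-17 and miR-106a differed at 1 of 23 bases, as did miR-19a and miR-19b. There were 2 differences between miR-17 and miR-20a, 2 between miR-20a and miR-20b, and 2 between miR-18a and miR-18b. The guides miR-93 and miR-106b differed at 5 of 21 aligned bases. The seeds of the miR-17 and miR-18 families differed at 1 base. Whether the array separates such close sequences was not tested.

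The hairpins of the miR-17-92 cluster lie at chr14:115043671-115044506 on the plus strand, within 836 bases, and give miR-17, miR-18a, miR-19a, miR-20a and miR-19b. The miR-106b-25 cluster lies at chr5:138165321-138165818 on the minus strand, inside the bounds of Mcm7 (chr5:138164583-138172111), and gives miR-106b and miR-93. The miR-106a-363 cluster lies at chrX:52741693-52742567 on the minus strand, and gives miR-106a, miR-18b, miR-20b and a second copy of miR-19b. That copy is at chrX:52741991-52742013, and the copy in the miR-17-92 cluster at chr14:115044358-115044380. The mature sequences of the copies are the same, so the single probe for miR-19b reads both clusters.

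Tests covered the 1076 probes whose spots exceeded a blank limit (mean plus 2 SD of blank spots) on 4 or more of 8 arrays, among them all 10 guides. The spots of the guides ranged from 237 to 1598 intensity units in MCD and from 232 to 1113 in control. Values are given below as normalized log2 intensities, and changes as the MCD mean minus the control mean on that scale. Levels of different probes are not comparable, since probes bind with different strength. Of the guides, miR-18b was nearest to background. It lay above the blank limit on 4 of 4 MCD and 1 of 4 control arrays, and on 0 of 8 arrays above the stricter limit set by the negative control spots. Above that stricter limit, miR-18a lay on 4 MCD and 2 control arrays and miR-19a on 4 MCD and 3 control arrays. The other 7 guides passed it on every array.

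In MCD liver, miR-106b and miR-19b were higher than in control, and 8 of the 10 guides did not pass the test. The change was 1.5-fold for miR-106b and 1.35-fold for miR-19b. In all, 2 of 10 guides rose and 0 fell (limma, p adjusted by Benjamini-Hochberg over all 1076 tested probes, called under 0.05), where 5.76% of all tested probes were higher and 4.46% lower. Many of those probes were dimmer than the guides. Among the 319 probes above the blank limit on all 8 arrays, 16.3% were higher, and 3 of the 9 guides held there. At an unadjusted p under 0.05, 5 guides were higher and 0 lower, against 12.5% and 9.11% of all tested probes. All 10 changes were positive, against 47.6% of all tested probes, except that miR-18b turned to -0.12 when the arrays were scaled by the spike control spots. The 10 changes had a median of 0.20, and the median of all tested probes was -0.01. Among the 10 is miR-18b, which passed the filter through its 4 MCD arrays, with 1 of 4 control arrays above the blank limit. Every MCD array lay above every control array for 4 guides, miR-106b, miR-19b, miR-20a and miR-18a, and for 8.83% of all tested probes. Unlike that of the adjusted calls, the shares of 12.5%, 9.11%, 47.6% and 8.83% were not taken among the 319 brighter probes. Whether the array separates guides this alike was not tested, so their 10 signs need not be separate observations.

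**Figure D1:**
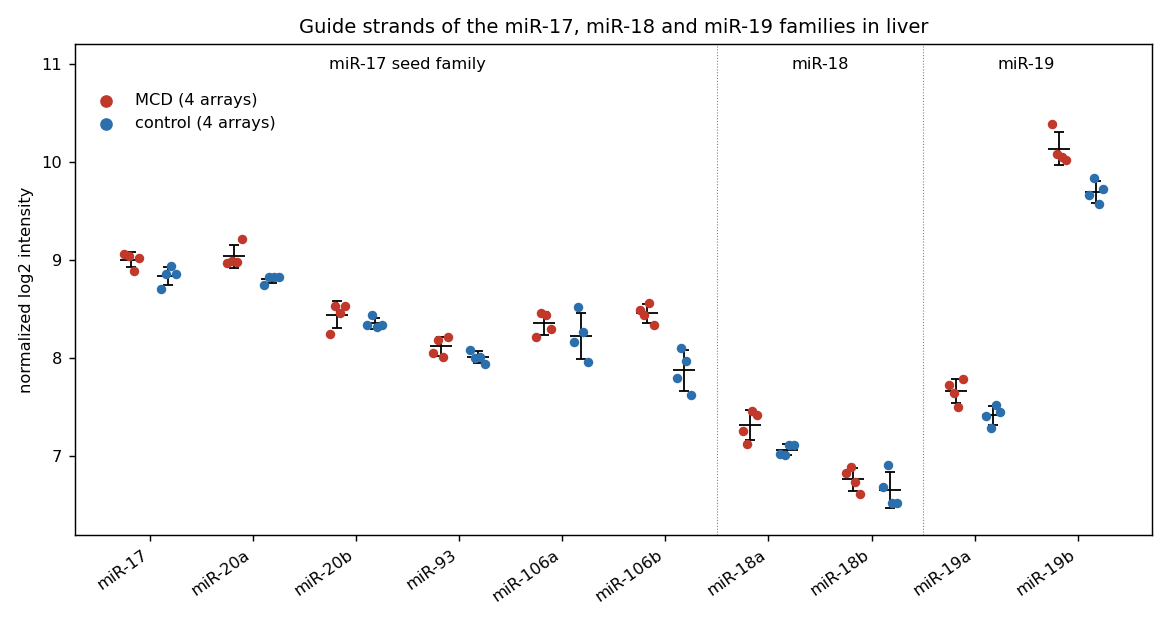
Normalized log2 intensity (y axis) of each of the 10 guides (x axis, by seed family) on the 4 MCD arrays (red) and the 4 control arrays (blue); the bars give the mean and the SD. The MCD points lie wholly above the control points for miR-20a, miR-106b, miR-18a and miR-19b, and the sets overlap for the other 6 guides.

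**Figure D2:**
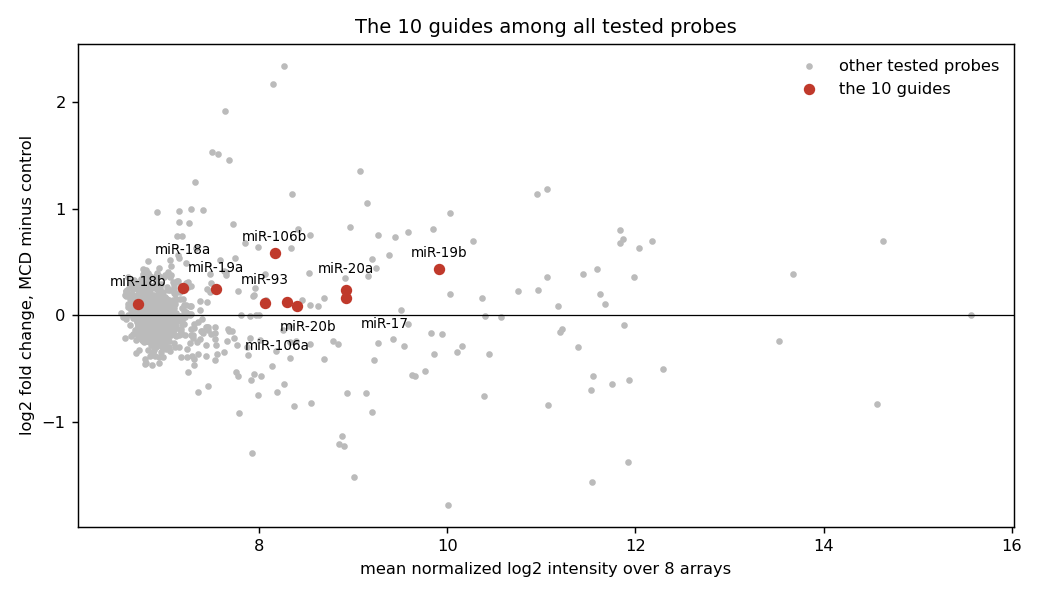
Change between diets (y axis, log2, MCD minus control) against the mean normalized log2 intensity over 8 arrays (x axis) for the 1076 tested probes (grey) and the 10 guides (red). All 10 guides lie above 0, with miR-106b at 0.58 and miR-19b at 0.44, while larger changes in both directions are found among the other probes.

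The miR-17 family had the most members. Its guide miR-106b, which represses CDKN1A, was at 8.49, 8.44, 8.57 and 8.34 in MCD and at 7.80, 8.11, 7.97 and 7.62 in control. The lowest MCD array lay 0.23 above the highest control array. The change was 0.58 ± 0.11 (SE, 95% interval 0.33 to 0.83, limma adjusted p = 0.00528), and ranked 41 among the 1076 changes, counted from the highest. This call was kept without any 1 array, with changes from 0.50 to 0.66. It ended under blank subtraction (limma adjusted p = 0.0696), although the change was larger there, at 0.90. That setting replaced both the normexp correction and the quantile normalization. It subtracted the blank mean, scaled each array to its median above a floor, and raised dimmer values to that floor. The authors' values gave the same change of 0.90 for miR-106b, and kept its call among 573 probes (limma adjusted p = 0.0155).

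The same family holds miR-93, encoded beside miR-106b, with 8.06, 8.19, 8.01 and 8.22 in MCD and 8.09, 8.0, 8.01 and 7.94 in control. These groups overlapped, and the change of 0.11 ± 0.09 was not past the threshold (SE, 95% interval -0.09 to 0.31, limma adjusted p = 0.551). The levels of miR-17, the member that gives the family its name, were 9.06, 9.04, 8.89 and 9.02 in MCD and 8.71, 8.85, 8.94 and 8.85 in control. Here only MCD 3 and control 3 overlapped, and the change was 0.16 ± 0.09 (SE, limma adjusted p = 0.347). The guide miR-20a, which lies with miR-17 in the miR-17-92 cluster, was at 8.97, 8.99, 8.98 and 9.22 in MCD and at 8.75, 8.82, 8.82 and 8.82 in control. The MCD arrays were all above the control arrays, but the change of 0.24 ± 0.09 was not past the threshold (SE, limma adjusted p = 0.151). It passed where only the 319 probes above the blank limit on all 8 arrays were tested (adjusted p = 0.0415). There 3 of 9 guides were higher, against 16.3% of those probes. Its spot held the same rank on control 2, 3 and 4, so quantile normalization left no spread between them.

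The remaining miR-17 family guides come from the X chromosome. In MCD, miR-106a was at 8.22, 8.46, 8.44 and 8.30, and in control at 8.16, 8.52, 8.27 and 7.96. The highest value of all 8 was that of control 2, and the change was 0.13 ± 0.12 (SE, limma adjusted p = 0.619). For miR-20b the values were 8.24, 8.53, 8.46 and 8.53 in MCD and 8.34, 8.44, 8.32 and 8.34 in control. MCD 1 was below every control array, and the change was 0.09 ± 0.10 (SE, limma adjusted p = 0.678). Over the 6 guides of the miR-17 family, 1 rose, 0 fell and 5 did not pass, with a median change of 0.14.

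In the miR-18 family 0 of 2 guides passed limma's test in either direction, and 1 was higher at an unadjusted p under 0.05. The guide miR-18a, from the miR-17-92 cluster, was at 7.26, 7.13, 7.47 and 7.42 in MCD and at 7.03, 7.01, 7.11 and 7.12 in control. All MCD arrays lay above all control arrays, by as little as 0.01 between MCD 2 and control 4, and the change was 0.25 ± 0.10 (SE, limma adjusted p = 0.153). Its paralog miR-18b on the X chromosome was at 6.83, 6.89, 6.74 and 6.62 in MCD and at 6.69, 6.91, 6.53 and 6.52 in control. The groups overlapped at this near-background level, with a change of 0.11 ± 0.11 (SE, limma adjusted p = 0.653).

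In the miR-19 family, miR-19b rose and miR-19a did not pass. The levels of miR-19b were 10.39, 10.08, 10.05 and 10.02 in MCD and 9.66, 9.84, 9.57 and 9.73 in control. MCD 1 stood above the other 3 MCD arrays, and all 4 lay above control. The change was 0.44 ± 0.11 (SE, 95% interval 0.20 to 0.67, limma adjusted p = 0.0221), ranking 54 from the highest. The call ended without control 1 (adjusted p = 0.0558), without control 3 (adjusted p = 0.0635) and without control 4 (adjusted p = 0.0688), with changes between 0.40 and 0.44. Without MCD 1 it was only just kept, with a change of 0.37 (limma adjusted p = 0.0497). Among 15 other settings it was called in 7, with changes between 0.22 and 0.48. For miR-19a, which differs from miR-19b in 1 base outside the seed, the values were 7.73, 7.64, 7.51 and 7.78 in MCD and 7.42, 7.29, 7.52 and 7.45 in control. Only MCD 3 fell within the control range, and the change was 0.25 ± 0.10 (SE, limma adjusted p = 0.157). It passed when the arrays were scaled to their median (adjusted p = 0.0329) or to their 75th percentile (adjusted p = 0.0374). Among the 232 probes brighter than the negative control limit on 4 or more arrays, 5 of 9 guides were higher, namely miR-106b, miR-19b, miR-19a, miR-20a and miR-18a. That filter let fewer and brighter probes into the adjustment, and 27.6% of all its probes were higher.

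Sorted by cluster, both miR-106b-25 guides had positive changes and 1 of 2 rose. Their median of 0.35 lies between only 2 values, 0.58 for miR-106b and 0.11 for miR-93. Of the 5 guides of the miR-17-92 cluster 1 rose, miR-19b, and 4 had an unadjusted p under 0.05, with a median of 0.25. Of all tested probes, many of them dimmer, 5.76% were higher after adjustment and 12.5% at an unadjusted p under 0.05. Of the 4 guides of the miR-106a-363 cluster 1 rose, again miR-19b, whose probe cannot tell the clusters apart, with a median of 0.12. The 3 guides found in the miR-106a-363 cluster alone had changes between 0.09 and 0.13, and 0 of them passed at an unadjusted p under 0.05. Of these, miR-18b was near background. The sizes of these changes depended on the scaling. Under median scaling miR-106a was at 0.36, miR-20b at 0.33 and miR-18b at 0.13, while the miR-17-92 guides lay between 0.28 and 0.48. On the authors' values miR-106a was at 0.32 and miR-20b at 0.31, and the miR-17-92 guides lay between 0.32 and 0.59.

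The array also held 18 other probes for these clusters, namely passenger and other arms and the partners miR-92a, miR-25 and miR-363-3p, which carry another seed. Of these 16 were tested, 0 rose, 2 fell and 14 did not pass, where 5.76% of all tested probes were higher and 4.46% lower. The 16 changes had a median of -0.04, and 6 of them were positive, against 47.6% of all tested probes. The partner miR-92a, which like miR-19b is encoded in both the miR-17-92 and the miR-106a-363 cluster so that its probe reads both, was at 7.67, 7.67, 7.48 and 7.57 in MCD and at 7.51, 7.83, 7.89 and 7.79 in control, overlapping values with a change of -0.15 ± 0.11 (SE, limma adjusted p = 0.469). The partner miR-25 of the miR-106b-25 cluster was at 7.95, 7.90, 8.01 and 8.02 in MCD and at 7.94, 8.30, 7.73 and 7.90 in control. Its change was 0.00 ± 0.12 (SE, 95% interval -0.26 to 0.26, limma adjusted p = 0.997). The guide miR-363-3p was too dim to be tested, with 1 of 4 MCD and 2 of 4 control arrays above the blank limit. The passenger strand miR-17* was at 0.22 ± 0.09 and did not pass (SE, limma adjusted p = 0.172).

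Both probes that fell belong to hairpins of the miR-106a-363 cluster. The arm miR-363-5p was at 7.22, 6.80, 6.87 and 7.06 in MCD and at 7.59, 7.57, 7.82 and 7.89 in control, 1.65-fold lower (log2 change -0.72 ± 0.12, SE, limma adjusted p = 0.00155). The groups were apart, and the MCD level was near background, with 1 of 4 MCD and 4 of 4 control arrays above the negative control limit. The call was kept in 14 of 14 other settings and without any 1 array. The passenger strand miR-92a-2* was at 7.47, 7.37, 7.38 and 7.72 in MCD and at 7.89, 7.82, 8.12 and 8.24 in control, 1.45-fold lower (log2 change -0.53 ± 0.12, SE, limma adjusted p = 0.0141). These groups were also apart, as were those of 6.23% of all tested probes in this direction. The call ended without control 4 (change -0.48, adjusted p = 0.050), under blank subtraction (adjusted p = 0.107) and with the t-test that the methods name, once adjusted. The strand lies at chrX:52741892-52741913 on the minus strand. It is shown with bases 2 to 8 in capitals because its letters differ from the guides above.
miR-92a-2*: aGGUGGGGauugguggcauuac

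**Figure D3:**
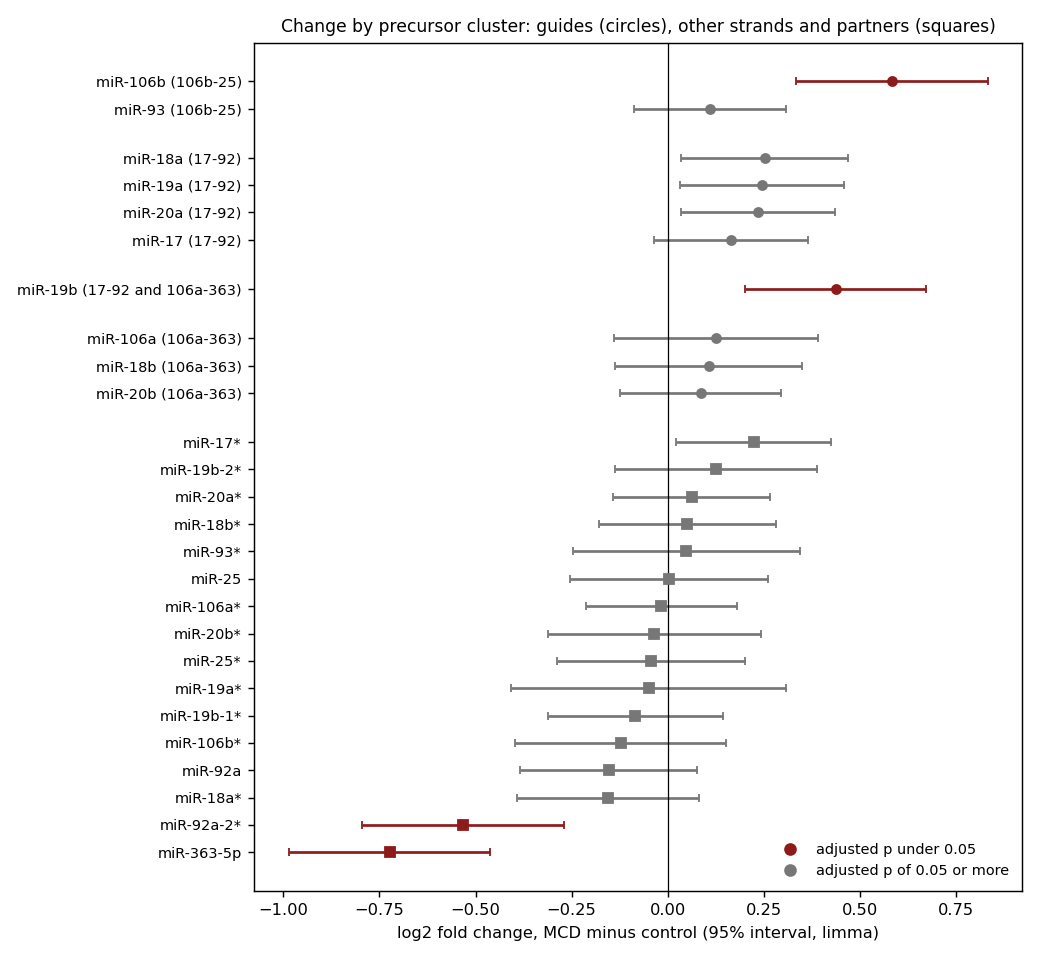
Log2 change between diets (x axis, MCD minus control, with 95% intervals from limma) of the 10 guides by cluster (circles) and of the 16 other tested probes of the same clusters (squares). Dark red marks an adjusted p under 0.05, reached above 0 by miR-106b and miR-19b, and below 0 by miR-92a-2* and miR-363-5p.

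To ask whether closely related guides changed by unequal amounts, the log2 difference between members of a pair was taken on each array and compared between diets, for 5 pairs (exact permutation test, two-sided, smallest possible p 0.0286, Benjamini-Hochberg adjustment over the 5 pairs). Unless 3 or more pairs reach that smallest p, 0 can pass after adjustment, and a single one has an adjusted p of 0.143 at best. Only 1 of 5 pairs reached it. That pair was miR-106b minus miR-93, from the same cluster, with 0.43, 0.25, 0.55 and 0.12 in MCD and -0.28, 0.11, -0.04 and -0.31 in control. The groups did not overlap, and miR-106b changed by 0.47 ± 0.14 more than miR-93 (SE, 95% interval 0.13 to 0.81, exact permutation p = 0.0286, adjusted p = 0.143).

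For pairs that differ in few bases, the intervals still held sizeable differences. The change of miR-17 exceeded that of miR-106a by 0.04 ± 0.14 (SE, 95% interval -0.31 to 0.39, exact permutation p = 0.800). That of miR-20a exceeded that of miR-20b by 0.15 ± 0.07 (SE, 95% interval -0.02 to 0.32, exact permutation p = 0.114). For miR-18a minus miR-18b the difference in change was 0.15 ± 0.18 (SE, 95% interval -0.28 to 0.58, exact permutation p = 0.457). The change of miR-19a was smaller than that of miR-19b by this measure, at -0.19 ± 0.14 (SE, 95% interval -0.52 to 0.14, exact permutation p = 0.286). The sign turned under blank subtraction and on the authors' values, which share a blank correction and median scaling and so are not separate evidence. The adjusted permutation p-values of these pairs ranged from 0.286 to 0.800, and no equality of the pairs follows from them.

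**Figure D4:**
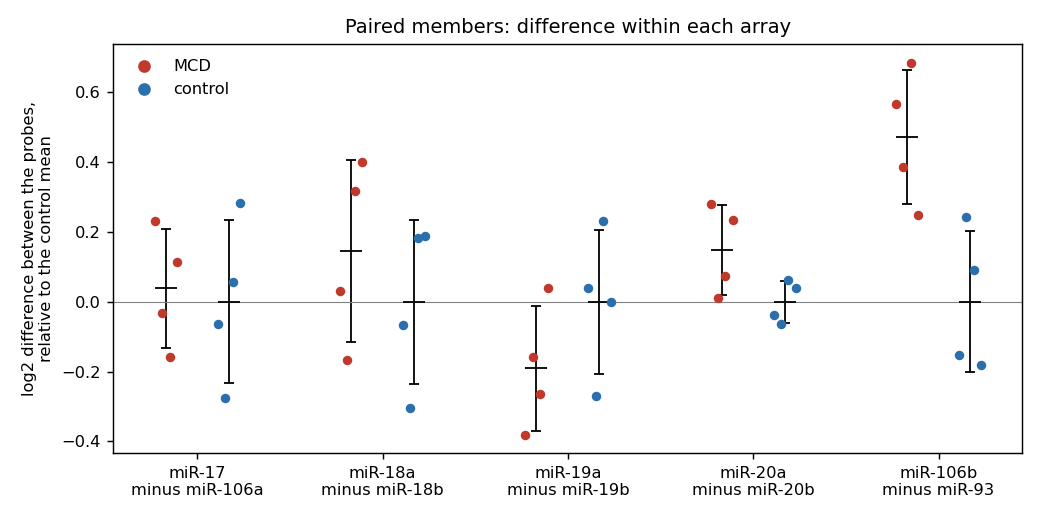
Log2 difference between the probes of each pair on each array, relative to the control mean of that pair (y axis), for the 5 pairs (x axis), with MCD in red and control in blue; the bars give the mean and the SD. The MCD and control points are apart for miR-106b minus miR-93 and overlap for the other 4 pairs.

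The authors' processed values, on a linear scale, held 9 of the 10 guides on every array, miR-18b being empty on control 4. On them miR-106b was at 351, 260, 322 and 227 in MCD and at 156, 196, 144.8 and 123 in control, 1.87-fold higher (log2 change 0.90 ± 0.26, SE, limma adjusted p = 0.0155). The groups were apart, as they were for 3 of the 9 guides and for 8.55% of the 573 probes listed on every array. Of the 9 guides 9 had positive changes, against 50.8% of those probes. By limma 1 of 9 guides was higher, against 7.5% of those probes. On the same values miR-19b was at 1374, 897, 1027 and 767 in MCD and at 866.5, 962, 619 and 660 in control. These overlapped, and the change was 1.30-fold (limma adjusted p = 0.448). For miR-19a they were 158, 121, 105 and 119 in MCD and 87.9, 75.3, 82.9 and 85.2 in control, 1.5-fold higher without overlap and not past limma's threshold (adjusted p = 0.136). The methods' t-test without adjustment passed 4 of the 9 guides as higher, miR-106b, miR-19a, miR-93 and miR-18a, against 12.4% of the listed probes, and 0 of the 9 after adjustment.

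**Figure D5:**
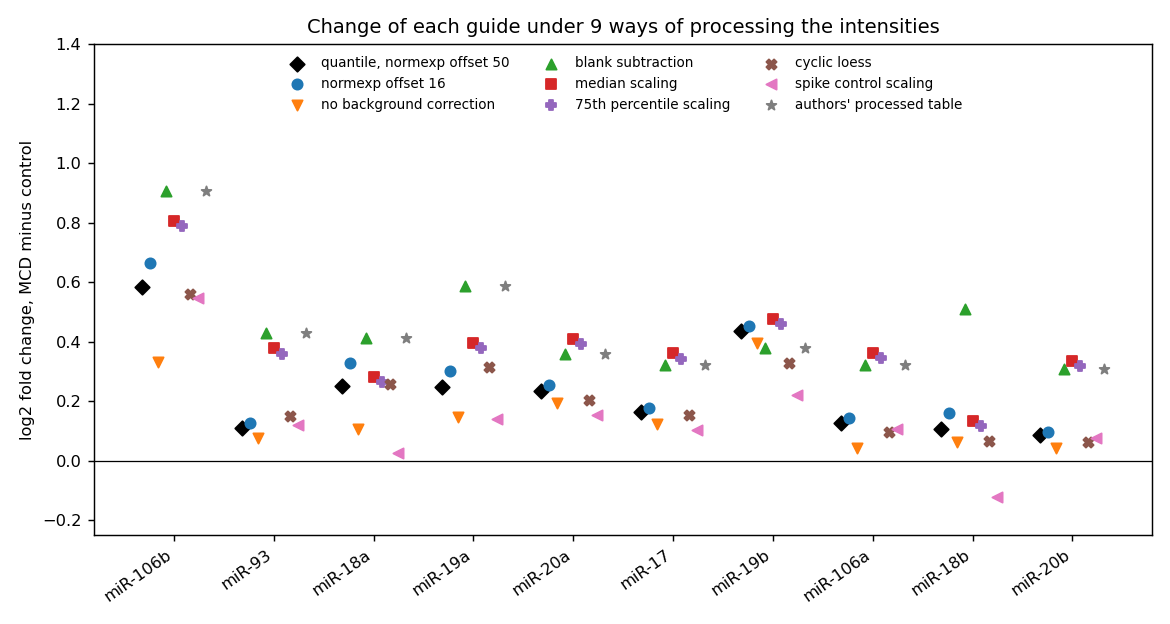
Log2 change between diets (y axis, MCD minus control) of each guide (x axis, by cluster) under 9 ways of processing the intensities, 1 symbol each. The changes of miR-106b lie between 0.33 and 0.90, and the only value below 0 is that of miR-18b, -0.12, under spike control scaling.

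The mean of the 10 guides on each array was used as their profile. The probes outside the families with the highest Pearson correlation to it over the 8 arrays were miR-3096b-3p (r = 0.967), miR-145 (r = 0.964) and miR-23a (r = 0.952). With the group means taken off, r was 0.635, 0.587 and 0.443. These values are a description and share the arrays and their scaling. The changes of the 3 probes were 1.91, 0.78 and 1.18 on the log2 scale, and miR-3096b-3p was above the negative control limit on 0 of 4 control arrays.

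Other signals moved with the diet. The hepatocyte markers miR-122, miR-192 and miR-194 were present on all arrays and fell in MCD, 3 of 3, with summed spot intensities above the blank mean of 19213 to 25612 in MCD and 39271 to 52054 in control. The fall of miR-192 lost its call without MCD 1, 2 or 3 or control 1, 2 or 4, which left 2 of 3 lower. Of 5 mesenchymal markers 4 rose (1920 to 5005 in MCD, 1044 to 1506 in control), of 5 leukocyte markers 2 rose (511 to 1162 in MCD, 369 to 434 in control), of 3 bile duct markers 3 rose (681 to 2588 in MCD, 134 to 191 in control), and of 2 endothelial markers 1 rose (3590 to 5839 in MCD, 2740 to 3687 in control). The bile duct marker miR-429 passed the filter through MCD, with 4 of 4 MCD and 1 of 4 control arrays above the blank limit. Both miR-429 and miR-200b exceeded the negative control limit on 0 of 4 control arrays. Among probes above the blank limit on all 8 arrays, 2 bile duct markers were higher. With 1 array left out, the number of leukocyte markers that were higher was between 0 and 2. It was 0 without control 1, and 1 without MCD 1, 2 or 3 or control 3 or 4. The call of the endothelial miR-126-3p ended in 5 of 15 settings, and its change was 0.67, or 0.27 under spike control scaling (adjusted p = 0.242). Of 2 red cell markers 0 passed limma's test (636 to 1778 in MCD, 328 to 1446 in control). The change of miR-451 was 0.81 ± 0.44 (SE, limma adjusted p = 0.318), with an SD of 0.88 in MCD and 0.84 in control. It was called in 1 of 15 settings, spike control scaling. The other, miR-144, exceeded the negative control limit on 0 of 8 arrays. The part of these cell types in the values of miR-106b and miR-19b was not tested. The scanner's Cell entry was 2 for all MCD arrays and 1 for all control arrays, so it cannot be told apart from diet. The labels do not say what this entry stands for. The share of probes above the blank limit was 65.9% to 91.9% in MCD and 42.4% to 90.4% in control.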

How the data were processed

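Total RNA of 8 liver samples, 4 MCD and 4 control, was labelled with Hy5 per the labels and hybridised to a 1-colour mouse miRNA array (1 array per sample). The scanner columns name the wavelength of the green dye, so the dye that was read is not known, but all arrays used the same columns. The deposited scanner files hold the median spot intensity and the local background intensity on a linear scale, uncorrected. The table deposited by the authors holds a linear intensity, which was found to be the spot minus a 5% trimmed blank mean, scaled so that the median of the listed probes was 45. The ribosomal scaling named in the methods could not be traced in it. Its direction and scale are thus known, and probes are not centred.

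Spots were corrected with normexp (offset 50), log2-transformed and quantile-normalized across 1135 miRNA probes in limma 3.58.1 (R 4.3.3). The offset pulls changes of dim probes towards 0. Diets were compared with lmFit and eBayes, unpaired as in the methods. The scripts were tested on simulated data. The number of arrays limits the precision. No probe reached the scanner's maximum. Groups and replicate numbers came from the labels.

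The members, gene lists and tests were chosen with earlier results of these data known. The text names all 10 guides, the other probes of their clusters that passed the threshold, miR-92a, miR-25 and miR-363, and the 3 probes most like the mean of the guides; miR-17* was named after its value was seen. Alternatives covered the background correction, scaling, filter, test, array weights, replicate block, the authors' values and each array left out. Replicate numbers were not taken to pair the samples, since the labels give them no shared mouse or batch and the deviations of same-numbered arrays correlated at 0.08, 0.10, -0.01 and 0.06.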

Additional observations from a re-analysis of the deposited data

Results flagged for a closer look

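In 8 of 110 groups of 4 values, 1 array stood apart by Dixon's criterion. Chance gives about 1 in 20 for separate values, a rate that need not hold here, since quantile normalization tied values of equal rank (as for miR-20a in control, miR-122 in MCD and miR-23a in control). Among the guides, miR-20a was at 9.22 on MCD 4, where the other MCD arrays lay between 8.97 and 8.99, and at 8.75 on control 1, where the others were at 8.82. The value of miR-19b was 10.39 on MCD 1, above the other MCD arrays at 10.02 to 10.08. Without MCD 1 the call of miR-19b was only just kept, with a change of 0.37 (limma adjusted p = 0.0497). Among the markers, miR-122 was at 13.73 on MCD 1 (others 14.29), and miR-143 at 10.02 on MCD 3 (others 9.49 to 9.56). The shared probe of miR-199a-3p and miR-199b was at 8.24 on control 1 (others 8.43 to 8.46), and miR-144 at 7.03 on control 2 (others 6.80 to 6.83). The value of miR-23a, one of the probes most like the mean of the guides, was 10.72 on control 2 (others 10.39).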

How the results depend on the processing

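Of the 10 guides, 2 were higher in MCD. The number was 1 with a normexp offset of 16, under cyclic loess, under spike control scaling, by the adjusted t-test and on the authors' values, and 0 under blank subtraction. It was 3 of 9 among the 319 probes above the blank limit on all 8 arrays (miR-20a was added), of which 16.3% were higher, 5 of 9 among the 232 probes brighter than the negative control limit on 4 or more arrays, of which 27.6% were higher, and 6 with the methods' t-test without adjustment, against 11.4% of all tested probes. Leaving out each array in turn gave 1 to 2. In every setting 0 guides were lower. Of all tested probes 110 were called, against 59 under blank subtraction, 217 and 61 with the methods' t-test before and after adjustment, and 73 to 118 with 1 array left out, the lowest without control 4. Under spike control scaling the median of all probes moved to -0.24 and that of the guides was 0.11, and 26.8% of the calls were higher, against 56.4%. This share was 71.2% under blank subtraction, 68.4% under median and 67.4% under 75th percentile scaling. The change of miR-18b turned to -0.12 under spike control scaling. The difference of miR-18a minus miR-18b turned to -0.10 under blank subtraction, and that of miR-19a minus miR-19b to 0.21 there and on the authors' values. These settings gave nearly the same changes for the guides listed in both, so they are not independent of each other. The difference of miR-17 minus miR-106a turned to -0.0021 under median, 75th percentile and spike control scaling. These scalings shift a whole array by a constant, which cancels in such a difference, so they cannot disagree here. With 1 array left out this difference ranged from -0.053 to 0.127 (-0.02 without MCD 1). The call of miR-106b held in 14 of 15 settings. That of miR-19b ended with offset 16, blank subtraction, median, 75th percentile, loess and spike control scaling, the adjusted t-test and the authors' values. The cause of these shifts was not tested. With the replicate number as a block 2 guides and 118 probes were called, with limma adjusted p = 0.00548 for miR-106b and 0.0354 for miR-19b. In 3 of 5 pairs of guides all 4 same-numbered differences had 1 sign. These were miR-18a minus miR-18b, miR-20a minus miR-20b and miR-106b minus miR-93. Each gives 0.125, the smallest p a sign-flip test over 4 numbers allows. Each array correlated best with its own number for 2 of 4 MCD and 3 of 4 control arrays. A block for the slide was not run, as no slide is named. The number of arrays and, for miR-18b, a signal near background limit the precision.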
